A study of Mus musculus with 10 samples.

Results

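In mouse RAW264.7 macrophages, 263 genomic regions carried a p65 peak in 3 of 3 LPS libraries and in 0 of 3 LPS+Skatole libraries. They are called lost regions below. They were 1.14% of the 23015 regions with a peak in 3 of 3 LPS libraries (exact 95% binomial interval 1.01% to 1.29%, counting error only), and 263 of the 235070 regions obtained by merging overlapping peaks of 9 libraries. The number depended on single libraries. It was 1204, 1179 and 1032 (3.88% to 4.39%) without LPS replicate 1, 2 or 3, and 536, 539 and 554 (2.32% to 2.40%) without LPS+Skatole replicate 1, 2 or 3, where 2 of 2 libraries of that group were enough. The members were chosen by the presence and absence of called peaks in the LPS and LPS+Skatole lists, so their peaks there are described and not tested. The rule asks nothing of the DMSO libraries, although their peaks were among those merged and so helped to set where a region begins and ends. A peak just under the calling threshold counts as absent, so a lost region is a loss of the call and not necessarily of all signal.

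RAW264.7 is a macrophage-like cell line from a male mouse, established from a tumour induced by Abelson murine leukemia virus, with a genotype labelled WT. Cells received DMSO (the solvent), DMSO with LPS (lipopolysaccharide, a bacterial cell wall component, the LPS group) or LPS with Skatole (a tryptophan product of gut bacteria, the LPS+Skatole group) for 12 h. Each group had 3 libraries of 200000 cells each, made by CUT&Tag, in which an antibody tethers a transposase to a chromatin protein and the cut fragments are sequenced. The labels name a p65 antibody, whereas the methods of the study name one against phosphorylated p65. A Blank sample without primary antibody was not analysed here, so binding without antibody was not subtracted. Nothing states whether the 3 libraries of a group came from separate cultures, and all cells belong to a single line.

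The lists held 37551 to 43450 peaks in the DMSO libraries, 55637 to 63498 in the LPS libraries and 78136 to 80153 in the LPS+Skatole libraries. The genome background, the lowest local background in a list and a proxy for depth, was 1.09 to 1.40 fragments per position in DMSO, 2.23 to 2.34 in LPS and 2.26 to 2.39 in LPS+Skatole libraries. At this background a summit needed 11 fragments for a call in each LPS and LPS+Skatole library and 8 or 9 in the shallower DMSO libraries. The lost regions were therefore absent from lists that were longer than the LPS lists at a similar depth. As a check of the cell type, 9 of 12 macrophage marker genes had a peak within 3 kb of a gene end in all 9 lists, and the lowest (Mrc1) had one in 1 of 9. The 15 markers of other cell types had one in a median of 1 of 9 lists, with 2 (Cd79a and Lck) in all 9 and 2 in none.

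p65 (RelA) belongs to the NF-κB family of transcription factors. In resting macrophages it is held in the cytoplasm by IκB proteins, and signalling from the Toll-like receptor for LPS releases it into the nucleus. There, NF-κB dimers bind κB motifs in promoters and enhancers, many of which the macrophage lineage factor PU.1 and partners such as AP-1 have made accessible.

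Few of the lost regions lay at promoters, and the promoter sequences concerned are shown first because they are the places where a lost p65 peak can be set against a defined gene start. RefSeq promoter windows (build GRCm38.p6, from 250 bases before to 50 bases after each start) overlapped 12 of the 256 lost regions on the chromosomes that the table covers, with 13 windows in all. The windows of Exosc2 (a subunit of the RNA exosome), C2cd5 (a C2-domain protein of glucose transporter traffic) and Gng4 (a G protein gamma subunit) contained the summits of all 3 LPS libraries. Those of Gng4, D830031N03Rik and Camta2 (a calmodulin-binding transcription activator) were the windows with a match to the κB motif. All 5 are printed 5′ to 3′ on the strand of the gene, with matches on either strand to the κB motif, to AP-1 (TGANTCA) or to the PU.1 core (GAGGAAG) in capitals.

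Exosc2, chr2:31670465-31670764, plus strand, with 0 matches: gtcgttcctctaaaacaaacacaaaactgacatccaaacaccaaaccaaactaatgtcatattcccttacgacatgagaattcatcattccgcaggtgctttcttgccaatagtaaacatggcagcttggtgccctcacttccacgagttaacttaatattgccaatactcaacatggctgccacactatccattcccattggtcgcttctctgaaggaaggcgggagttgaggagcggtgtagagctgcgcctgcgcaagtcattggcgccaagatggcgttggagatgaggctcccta

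C2cd5, chr6:143100103-143100402, minus strand, with 0 matches: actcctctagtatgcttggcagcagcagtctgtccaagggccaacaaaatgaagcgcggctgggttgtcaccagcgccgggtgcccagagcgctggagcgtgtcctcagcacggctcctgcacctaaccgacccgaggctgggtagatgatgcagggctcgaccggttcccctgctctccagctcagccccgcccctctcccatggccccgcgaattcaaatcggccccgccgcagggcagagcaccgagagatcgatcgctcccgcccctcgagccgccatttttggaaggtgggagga

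Gng4, chr13:13784057-13784356, plus strand, with a PU.1 core and a κB match: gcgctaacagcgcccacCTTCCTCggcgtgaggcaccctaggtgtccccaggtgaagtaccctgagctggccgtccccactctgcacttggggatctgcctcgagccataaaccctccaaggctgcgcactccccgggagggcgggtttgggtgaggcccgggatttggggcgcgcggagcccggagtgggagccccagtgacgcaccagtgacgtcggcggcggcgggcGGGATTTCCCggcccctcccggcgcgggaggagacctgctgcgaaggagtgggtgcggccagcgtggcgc

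D830031N03Rik, chr4:123411862-123412161, minus strand, with a κB match: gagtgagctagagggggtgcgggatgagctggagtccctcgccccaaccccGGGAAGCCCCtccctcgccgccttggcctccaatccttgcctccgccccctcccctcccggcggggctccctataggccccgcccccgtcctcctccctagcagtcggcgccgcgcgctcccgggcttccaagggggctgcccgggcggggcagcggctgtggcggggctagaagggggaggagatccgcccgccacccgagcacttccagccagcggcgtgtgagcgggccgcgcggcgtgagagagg

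Camta2, chr11:70687481-70687780, minus strand, with 2 κB matches: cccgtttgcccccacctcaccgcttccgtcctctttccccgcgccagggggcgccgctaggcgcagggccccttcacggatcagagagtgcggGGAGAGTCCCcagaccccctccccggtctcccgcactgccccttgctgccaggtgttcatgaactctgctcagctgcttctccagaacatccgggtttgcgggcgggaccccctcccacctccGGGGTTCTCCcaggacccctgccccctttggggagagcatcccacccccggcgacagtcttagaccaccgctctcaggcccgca

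In the Gng4 window the κB match GGGATTTCCC lay 16 bases before the start, at chr13:13784287-13784296 and 86 bp from the nearest LPS summit. The match of D830031N03Rik lay 194 bases before its start and 81 bp from the nearest summit, and those of Camta2 lay 30 and 152 bases before the start and 270 and 393 bp from the nearest summit. Over all 32851 promoter windows, 8.46% held a κB match, 7.81% an AP-1 match and 13.6% a PU.1 core match. Over the 9154 windows in regions called in all LPS and all LPS+Skatole libraries, these shares were 10.7%, 5.28% and 14.0%. With 13 windows in lost regions, 3 with a κB match are a description only. The same holds for the AP-1 match, found in the H1f5 window, and for the PU.1 core match, at a site shared by the overlapping Gng4 windows. The windows of lost regions had a median GC content of 58.3% and a median of 17 CpG, against 61.3% and 22 in kept regions and 52.7% and 7 over all windows. Promoters in lost regions were thus nearer to the CpG-rich promoters of kept regions than to the typical window.

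The Gng4 region (chr13:13783954-13784376) had summit counts of 23, 26 and 26 fragments in LPS libraries 1 to 3 and no peak in any DMSO library. These 3 values lay close together, and an LPS+Skatole library needed 12 fragments for a call at the local background of the LPS libraries. It was the only region with 3 of 3 LPS peaks at Gng4. The nearest LPS+Skatole peak lay 286 bp from this region, so p65 signal close to the promoter was still called with skatole. The C2cd5 region (chr6:143100104-143101039) had counts of 50, 88 and 60 in the LPS libraries and 56 in DMSO library 2. Its LPS background reached 16.8 times the genome background, so that 52 to 54 fragments were needed in the LPS+Skatole libraries, which the count of LPS library 1 did not reach.

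To show where the lost regions stood among p65 regions, they were set beside the 19799 regions with a peak in 3 of 3 LPS and 3 of 3 LPS+Skatole libraries (kept regions) and 2953 regions with a peak in 1 or 2 of 3 LPS+Skatole libraries. Peaks were ranked within each list by their −log10 p, from percentile 0 to 100 (the strongest). The median of the mean LPS percentile was 43.7 for lost regions, against 79.8 for kept regions and 76.3 for all regions with 3 of 3 LPS peaks. The mean percentile of a lost region ranged from 8.30 to 87.0, and its quartiles were 34.7 and 51.1. The share lost was 5.40% of the 1631 regions between percentiles 40 and 50, 2.00% of the 2648 between 50 and 60 and 0.0405% of the 4933 between 80 and 90. Above percentile 90, 0 of 5005 regions were lost. Below percentile 10, 3 of 15 regions were lost. The share lost thus went down with rank.

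**Figure D1:**
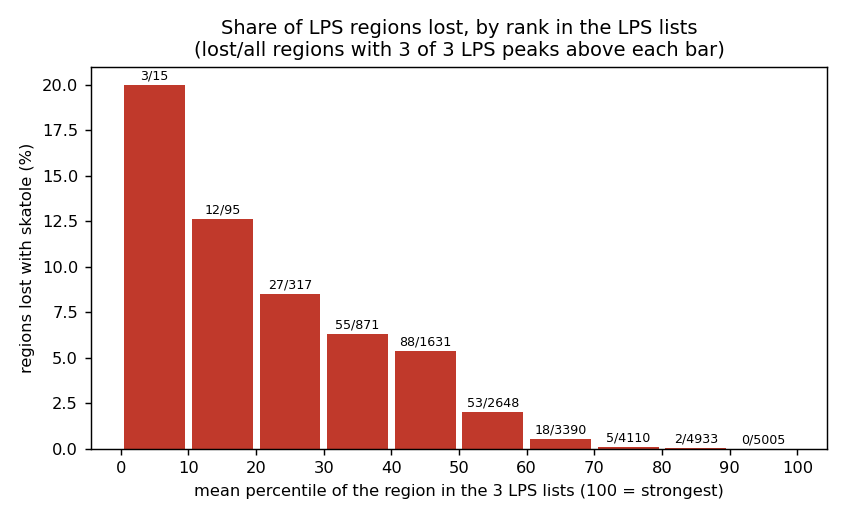
Share of regions with 3 of 3 LPS peaks that had no peak in any LPS+Skatole library (vertical axis, %), in bins of the mean percentile of the region in the 3 LPS lists (horizontal axis). Above each bar stand the lost regions over all regions of the bin. The share goes from 20% in the lowest bin, which has 15 regions, to 0% in the highest.

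The summit counts of the members were small. Over the 263 regions the count had a lowest value of 11, a median of 21 and a highest value of 317 in LPS library 1. In library 2 these were 11, 20 and 354, and in library 3 they were 11, 22 and 273. The 3 LPS libraries were alike in level, but the members were chosen for a peak in all 3. The lowest value of 11 is the lowest count called at the genome background in each LPS list. The lowest −log10 p of the 3 had a median of 9.06, and it was under 6 in 28 members and at least 10 in 101. All LPS peaks lay at the genome background in 152 members. In 13 members the highest LPS background was over 10 times the genome background, and the highest count, 354, came from one of these, nearest to Gm40035. A background raised in at least 2 of the 3 LPS libraries was found in 38.8% of lost regions, 54.2% of kept regions and 65.2% of kept regions of similar rank.

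How far a member stood above the call was measured as its LPS count over the genome background, divided by the level that an LPS+Skatole library needs for a call at the same local background. The lowest of the 3 LPS values was at least 1.5 times this level in 97 members, at least 2 times in 12 and at least 3 times in 2. Its median was 1.43. The mean of the 3 LPS values was at least 2 times the level in 64 members. In most members the weakest LPS peak therefore lay within 2 times the level of a call.

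The region of highest rank lay at chr3:96398874-96399383, in intergenic sequence nearest to BC107364 and over n-TQctg4, a tRNA gene. Its summit counts were 75, 63 and 77 in the LPS libraries, and it had no peak in a DMSO library. In the LPS+Skatole libraries, 20 or 21 fragments would have been called. The lowest LPS value was 3.19 times the level needed, the highest ratio of all members. tRNA genes have near-identical copies, and how reads with several matches were placed is not given in the sources used here.

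The region of the next rank lay in the body of Atp8a1, a flippase that moves aminophospholipids to the cytoplasmic side of membranes (chr5:67633374-67634313). Its counts were 33, 41 and 42 in the LPS libraries, at the genome background, and it had no DMSO peak. The lowest LPS value was 3.05 times the level needed, and the nearest LPS+Skatole peak lay 2436 bp away. Atp8a1 had 6 regions with 3 of 3 LPS peaks, of which 4 were kept. In Gm39469 (chr9:124273094-124274471), a predicted gene, the counts were 36, 41 and 46 with no DMSO peak. Here the nearest LPS+Skatole peak lay 334 bp away.

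The Exosc2 region (chr2:31670239-31670768), whose promoter is printed above, had counts of 72, 94 and 137 in the LPS libraries and 61 in DMSO library 2. Counts spread widely between the LPS libraries, and the LPS background reached 10.2 times the genome background, so that 46 to 48 fragments were needed. Exosc2 had 2 regions with 3 of 3 LPS peaks, of which 1 was lost. The other was not kept either, but had a peak in 1 or 2 of 3 LPS+Skatole libraries. The Mink1 region (chr11:70601254-70602392), in the body of a Ste20-family kinase that acts upstream of MAPK signalling, had counts of 40, 24 and 35 and a DMSO peak of 26 fragments in library 2. Mink1 kept 4 of its 5 regions.

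The next 3 regions by rank lay in gene bodies. In Itpr3, an inositol trisphosphate receptor that releases calcium from the endoplasmic reticulum (chr17:27065916-27066628), the counts were 25, 31 and 48, with no DMSO peak. In Wdfy1, an adaptor of Toll-like receptor signalling (chr1:79765789-79766983), they were 26, 32 and 30, again with no DMSO peak. In Agtpbp1, a tubulin deglutamylase (chr13:59499605-59500756), they were 28, 31 and 40, with 23 fragments in DMSO library 3. Of these, Wdfy1 had the least spread between LPS libraries and Itpr3 the most.

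Near Spsb4, a substrate receptor of a ubiquitin ligase, a region over the long non-coding RNA gene Gm16010 (chr9:97020062-97020741) had counts of 36, 25 and 24 and no DMSO peak. It lay 12065 bp from the nearest LPS+Skatole peak, a long distance for a member. Near Plekha1, a phosphoinositide-binding protein (chr7:130846804-130848138), the counts were 20, 28 and 40, with 20 and 16 in DMSO libraries 2 and 3. In Bcar3, an adaptor of Cas-family signalling (chr3:122421844-122422718), they were 27, 42 and 36, with 23 in DMSO library 3. In Ranbp9, a scaffold of a ubiquitin ligase complex (chr13:43478505-43479593), they were 28, 25 and 25, with 15 in DMSO library 1. Of the 12 regions of highest rank, 6 thus had no DMSO peak, 5 had one in 1 library and 1 in 2 libraries.

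**Figure D2:**
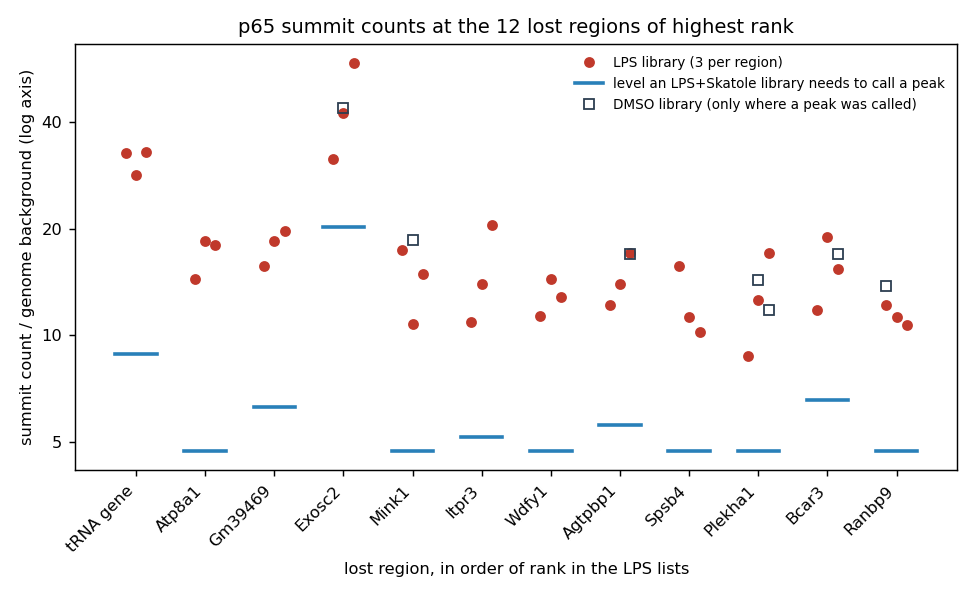
Summit count divided by the genome background of the library (vertical axis, log scale) at the 12 lost regions of highest rank (horizontal axis). Circles are the 3 LPS libraries, open squares are DMSO libraries where a peak was called, and the blue line is the level an LPS+Skatole library needs for a call at the local background. All LPS circles lie above the line, and the lowest circle of a region stands highest above it at the tRNA gene, at 3.19 times.

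The rule sets no condition on DMSO peaks, so their presence was compared between region sets. Of the 263 lost regions, 161 (61.2%, exact 95% interval 55.0% to 67.1%, counting error only) had a peak in 0 of 3 DMSO libraries, against 10.1% of all 23015 regions with 3 of 3 LPS peaks. A DMSO peak was present in 1 library for 65 members, in 2 for 27 and in 3 for 10. Any DMSO peak was seen in 38.8% of lost regions, 70.1% of regions kept in 1 or 2 LPS+Skatole libraries and 93.6% of kept regions. It was seen in 32.6% of the 1191 regions with the opposite pattern (0 of 3 LPS and 3 of 3 LPS+Skatole peaks) and in 30.0% of all merged regions, so a low share was not particular to lost regions. Because lost regions are of lower rank, 1416 kept regions with a mean LPS percentile between the quartiles of the lost regions served as a set of like rank, and 82.0% of these had a DMSO peak.

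DMSO libraries 1, 2 and 3 had a peak in 14.8%, 20.2% and 21.7% of lost regions, a mean of 18.9% ± 3.59 (SD, n = 3). The same libraries had one in 80.2%, 83.9% and 83.6% of kept regions, a mean of 82.6% ± 2.03 (SD, n = 3), and in 54.4%, 62.6% and 60.4% of kept regions of like rank, a mean of 59.1% ± 4.27 (SD, n = 3). The values of lost regions overlapped with those of neither set. Lost regions were 63.7 percentage points below kept regions (SD 1.75 over 3 libraries, exact two-sided sign-flip test, p = 0.25) and 40.2 points below those of like rank (SD 1.99, exact two-sided sign-flip test, p = 0.25). With 3 libraries 0.25 is the smallest p this test can give, so the design cannot pass 0.05. All 3 libraries had the same direction.

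When regions were merged from the LPS and LPS+Skatole lists alone, a setting chosen after seeing the data, 275 were lost, and 255 of the 263 members overlapped these. DMSO libraries 1, 2 and 3 then had a peak in 16%, 21.5% and 23.3% of lost regions, 62.4 points below kept regions on average and 39.0 below those of like rank (exact two-sided sign-flip tests, p = 0.25 each). A DMSO peak covered the LPS summit itself in 11.8% ± 2.78 (SD, n = 3) of these lost regions, 72.8% ± 2.27 (SD, n = 3) of kept regions and 41.3% ± 3.41 (SD, n = 3) of those of like rank. The lost regions were thus lower in each of these settings.

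The like-rank set was matched on percentile only. Its median count over the genome background was 12.7 and its median width 1576.5 bp, against 9.28 and 907 bp for lost regions, and wider regions have more room for a peak. With the summit measure, in regions merged without the DMSO lists, the difference from the like-rank set was −29.5 points. Kept regions, also those of like rank, needed a peak in 3 of 3 LPS+Skatole libraries, and lost regions needed none. The sets thus already differed in how often they were called, and a share in any further library carries this choice. Regions chosen as lost from 2 libraries of each group were called in 31.2% on average in a left-out LPS library. Among all regions called in both remaining LPS libraries this was 85.1%. The parts of the choice, of width and of the lower counts in the DMSO result were not tested. A DMSO library needed 6.44 to 7.34 times its genome background for a call, against 4.69 to 4.94 times in the LPS libraries. The share with a DMSO peak moved with single libraries, to 23.7%, 26.1% and 26.8% when regions were rebuilt without LPS replicate 1, 2 or 3, and it was 59.8% in lists of equal length, where lost regions were still 50.8 points below kept regions.

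**Figure D3:**
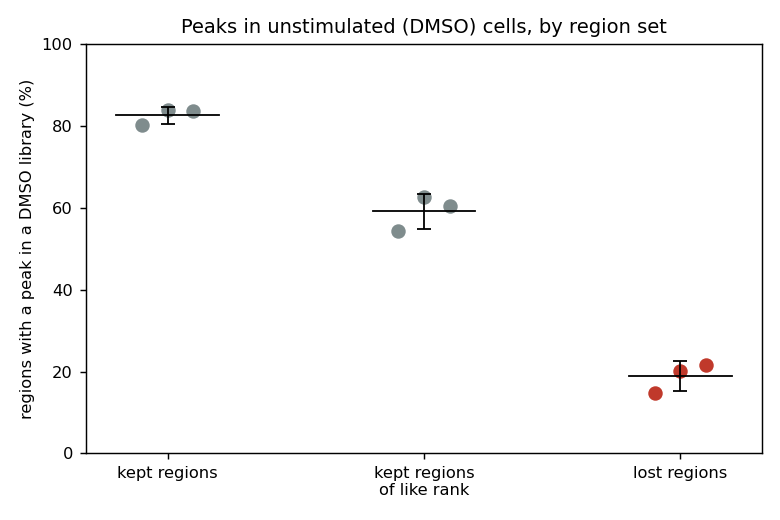
Share of regions with a peak in each DMSO library (vertical axis, %) for kept regions, kept regions of like rank and lost regions. Points are the 3 DMSO libraries, and lines and bars are mean and SD. Lost regions lie between 14.8% and 21.7%, below both kept sets in all 3 libraries.

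The 10 members with a peak in 3 of 3 DMSO libraries were a mixed set. In Mtus2, a microtubule-associated protein (chr5:148310862-148311750), the DMSO counts were 18, 30 and 33 and the LPS counts 19, 34 and 34. Relative to the genome background this was 16.5, 21.5 and 24.3 in DMSO and 8.28, 15.3 and 14.5 in LPS libraries, so that every DMSO value lay above every LPS value. In Eif4g3, a translation initiation scaffold (chr4:138027463-138029123), the DMSO counts were 11, 13 and 13 and the LPS counts 26, 18 and 23. Relative to the background, the values of 10.1, 9.30 and 9.57 in DMSO lay within the range of 8.09 to 11.3 in LPS.

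Near Emc7, a subunit of the endoplasmic reticulum membrane complex (chr2:112450827-112451732), counts were 12, 15 and 15 in DMSO and 24, 19 and 21 in LPS libraries. Relative to the genome background these were 11.01, 10.73 and 11.04 in DMSO and 10.5, 8.54 and 8.96 in LPS, so that every DMSO value was again the higher. At the start of D830031N03Rik, in a region that also overlapped Macf1, a linker of actin and microtubules (chr4:123411679-123412922), they were 24, 16 and 16 in DMSO and 33, 13 and 40 in LPS libraries. LPS library 2 had the lowest of these values.

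Several of these 10 lay on a high local background. An intergenic region whose nearest gene end was that of Olfr161 (chr16:3114683-3115549), 477261 bp away, had 192, 223 and 231 fragments in DMSO and 317, 296 and 273 in LPS libraries, the latter at up to 82.6 times the genome background. Its counts relative to the genome background were 159 to 176 in DMSO and 116 to 138 in LPS libraries. In Csf2ra, the alpha chain of the GM-CSF receptor (chr19:61223832-61224560), counts were 78, 65 and 85 in DMSO and 140, 94 and 149 in LPS libraries, at up to 35.8 times. H1f5 (a linker histone), Rpl35a (a ribosomal protein) and Ap3m1 (a subunit of a vesicle adaptor) were also in the set, with LPS backgrounds of up to 19.5, 5.02 and 7.27 times. Relative to the genome background, H1f5 had 51.5 to 64.8 in DMSO and 30.1 to 34.1 in LPS libraries, and Rpl35a 25.7 to 31.5 and 15.7 to 19.2. In 5 of the 10 members (Mtus2, Emc7, H1f5, Rpl35a and the region nearest to Olfr161) every DMSO value thus lay above every LPS value on this scale, although the raw counts, from libraries of unequal depth, were mostly lower in DMSO. The 10 were picked by their DMSO peaks, and a DMSO call needs a higher multiple of the background. Such regions need a high count for a call, which was 226 to 237 fragments near Olfr161.

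The position of the members relative to genes was a further measure that the choice did not use. Summits of 59 lost regions (22.4%, exact 95% interval 17.5% to 28.0%, counting error only) lay within 3 kb of an end of a protein-coding gene, against 43.3% of kept regions, 34.0% of those of like rank and 41.4% of all regions with 3 of 3 LPS peaks. Gene bodies held 136 (51.7%), against 33.7%, 37.4% and 35.1%. Intergenic sequence held 68 (25.9%), against 23.0%, 28.6% and 23.6%. A gene start of the promoter table lay within 1 kb of 22 of 256 summits (8.59%), against 32.5% of kept regions and 23.7% of those of like rank. A promoter window was overlapped by 4.69% of lost regions, 34.1% of kept regions and 23.2% of those of like rank, but lost regions were also narrower. Of regions with the opposite pattern, 15.6% lay at gene ends, 47.8% in gene bodies and 36.6% in intergenic sequence, with 5.75% within 1 kb of a start, so that low shares at gene ends and starts were not particular to lost regions, while the intergenic share was higher than theirs. In addition, 17.1% of all merged regions lay at gene ends. Regions share libraries and are not replicates, so these shares were not tested. By chromosome, the share lost went from 0.668% on chromosome 7 to 1.93% on chromosome 3, with 0 of 17 regions on Y.

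**Figure D4:**
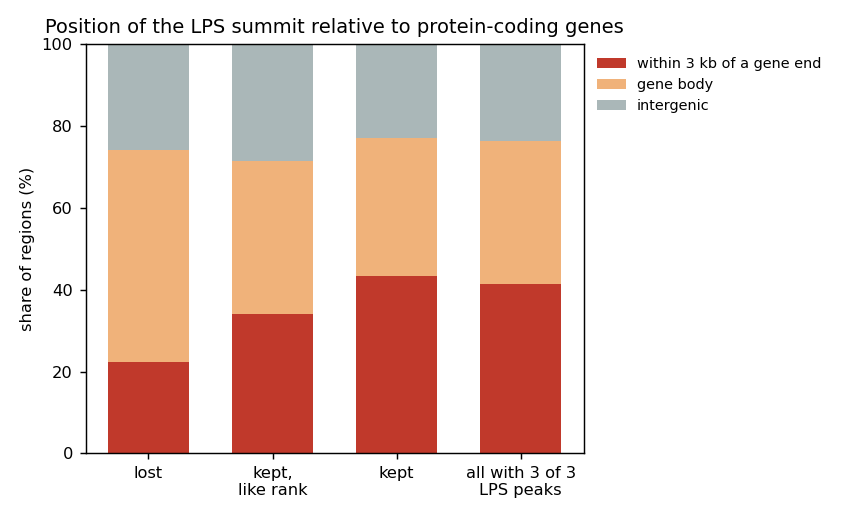
Share of regions (vertical axis, %) whose LPS summit lay within 3 kb of a protein-coding gene end, in a gene body or in intergenic sequence, for lost regions, kept regions of like rank, kept regions and all regions with 3 of 3 LPS peaks. The gene-end part is 22.4% of lost regions and 34.0% of kept regions of like rank.

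Beside Exosc2, Bcar3, Ranbp9 and the region near Spsb4, the gene-end members of highest rank were at Cyp51 and Slc35a3. At Cyp51, the lanosterol demethylase of cholesterol synthesis (chr5:4101504-4102765), LPS counts were 27, 20 and 35, and DMSO libraries 2 and 3 had 15 and 29 fragments. At Slc35a3, a Golgi transporter of nucleotide sugars (chr3:116712343-116713048), LPS counts were 30, 32 and 36, and DMSO libraries 1 and 3 had 18 and 22. The LPS values of Slc35a3 were alike, those of Cyp51 spread more, and both had DMSO peaks in 2 libraries. The Slc35a3 region was the only one with 3 of 3 LPS peaks at its gene, while Cyp51 kept its other region. The Camta2 region (chr11:70686607-70687693) had counts of 38, 33 and 35 in LPS and 32 and 34 in DMSO libraries 1 and 3.

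Small RNA genes lay under 5 members (1.90%), close to the 1.49% of all regions with 3 of 3 LPS peaks. Beside n-TQctg4, these were the 5S rRNA genes n-R5s118 and n-R5s122, the snRNA gene Gm23971 and the microRNA gene Mir6910. The regions over the rRNA genes (chr8:123568942-123569377 and chr8:123575810-123576194) lay 6433 bp apart and had LPS counts of 44, 42 and 44 and of 45, 38 and 46, with no DMSO peak. At Gm23971 (chr11:101645060-101645768) the counts were 193, 201 and 246 at up to 51.1 times the genome background, with no DMSO peak. The region with Mir6910, at Plppr3 and Ptbp1 (chr10:79862106-79863190), had counts of 18, 20 and 14 and a DMSO peak of 21 fragments in library 3. Long non-coding RNA genes lay under 24 members, of which 15 overlapped no protein-coding gene.

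Lost regions lay in or within 3 kb of 216 protein-coding genes, 1.92% of the 11260 genes with a region of 3 of 3 LPS peaks. Of these genes, 180 (83.3%) had a kept region as well, and for 31 the lost region was the only one with 3 of 3 LPS peaks. Most genes with a lost region thus still carried a p65 peak in all 3 LPS+Skatole libraries. The matching share over all 11260 genes is not given here, so the 83.3% is a description and not a trait of these genes.

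Among inflammatory genes, 0 of the 25 listed cytokines and chemokines with an LPS region had a lost one. The list does not hold Il34, a cytokine ligand of the CSF1 receptor, which had 1 lost region of 4 and kept 2. The NF-κB pathway had 1 of 35 (Tab2), Toll-like and IL-1 receptor signalling 1 of 25 (Irf5), the interferon response 1 of 25 (Stat2) and MAPK signalling 2 of 36 (Map2k5 and Mink1). Lysosomal and V-ATPase genes had 0 of 44 and oxidative phosphorylation genes 0 of 65, while glutathione and antioxidant genes had 1 of 38 (Txnrd1), glycolysis genes 1 of 26 (Pfkfb4) and ribosomal protein genes 2 of 70 (Rpl35a and Rps12). Macrophage lineage factors had 3 of 30 (Mef2a, Pparg and Spi1), phospholipid flippases 2 of 10 (Atp8a1 and Atp9b), alternative activation genes 1 of 12 (Msr1) and the RNA exosome 1 of 11 (Exosc2). The lists differ in size and in how many regions their genes have, the flippase and exosome lists were made with Atp8a1 and Exosc2 already known as lost, and nothing is called particular to a list.

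Spi1 encodes PU.1, the lineage factor that opens macrophage enhancers, and its lost region (chr2:91092813-91093791) had LPS counts of 22, 16 and 21 and no DMSO peak. It lay 53 bp from an LPS+Skatole peak, and Spi1 kept 4 of its 5 regions. In Mef2a, a transcription factor of the MEF2 family (chr7:67283356-67283899), counts were 40, 22 and 16, with the highest value in library 1. Near Pparg, a lipid-sensing nuclear receptor (chr6:115490824-115491730), they were 24, 14 and 16. None of these had a DMSO peak.

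In Msr1, a class A scavenger receptor (chr8:39608254-39609466), counts were 20, 26 and 20, and at Irf5, a transcription factor of inflammatory macrophages (chr6:29541748-29542659), they were 25, 33 and 12. At Stat2, a signal transducer of type I interferon (chr10:128272736-128273602), they were 19, 19 and 24, and in Tab2, an adaptor of the kinase TAK1 (chr10:7947056-7948632), 16, 21 and 17. These regions had no DMSO peak, and LPS library 3 was close to the call at Irf5. An LPS+Skatole peak lay 150 bp from the Msr1 region, 223 bp from that at Irf5 and 429 bp from that at Stat2. Each of these genes kept at least 1 region. Near Rps12, a ribosomal protein of the small subunit (chr10:23783873-23784971), counts were 26, 33 and 34, with 14 and 44 in DMSO libraries 1 and 2. In Txnrd1, a thioredoxin reductase (chr10:82879884-82880727), they were 16, 12 and 13 with no DMSO peak, and 5 of 6 regions were kept.

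A pair of lost regions was found at 6 genes, Abr, Limk2, Lmln, Mybbp1a, Spns2 and Uvrag. In Limk2, a kinase that phosphorylates cofilin, the regions lay at chr11:3386138-3387704 (counts 28, 17 and 22) and chr11:3399488-3400143 (16, 34 and 28), and 1 of its 3 regions was kept. In Abr they lay at chr11:76483853-76484511 (17, 17 and 23) and chr11:76564480-76566369 (19, 25 and 34), and 14 of 18 were kept. In Uvrag, an autophagy factor, they lay at chr7:99043465-99044158 (46, 40 and 62) and chr7:99073891-99074726 (14, 18 and 19), and 5 of 8 were kept. The highest counts of these were in Uvrag, at a raised background.

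Mybbp1a, a nucleolar Myb-binding protein, and Spns2, an exporter of sphingosine 1-phosphate, share their pair. Those regions, at chr11:72451082-72452357 (14, 16 and 19) and chr11:72453789-72455605 (15, 15 and 19), lay 1432 bp apart. Lmln, a metallopeptidase, had lost regions at chr16:33072926-33073349 (15, 21 and 16) and, shared with Rpl35a, at chr16:33059425-33061306 (43, 35 and 45), and kept 0 of its 3. The remaining region at Lmln had a peak in 1 or 2 of 3 LPS+Skatole libraries. Of all neighbouring members, 2 pairs lay within 10000 bp and 18 within 100000 bp.

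Many lost regions had an LPS+Skatole peak close by. It lay within 200 bp of 34 members (12.9%), within 500 bp of 72 (27.4%), within 1000 bp of 114 (43.3%) and within 5000 bp of 224 (85.2%), with a median distance of 1173 bp. The matching shares for other sets of regions are not given here, so these are a description and not a trait of lost regions. The count of 263 thus includes regions beside a peak that did not overlap, and 191 remain when those within 500 bp are left out.

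At the edge of the rule, the members with the weakest LPS peaks included those in Mok and B4galt6. Their lowest −log10 p was 5.00 and 5.05, against a threshold of 5, with LPS counts of 24, 55 and 18 in Mok and 35, 20 and 31 in B4galt6. Just outside were regions in Rab7b, Suz12 and Anln, which had a single LPS+Skatole peak, in library 3, of 11 fragments and a −log10 p of 5.08. Their LPS counts were 17, 23 and 18 in Rab7b, 21, 20 and 28 in Suz12 and 19, 18 and 18 in Anln. Mok and B4galt6 were picked by their weakest LPS peak, and the regions just outside by their LPS+Skatole peak. In Mok the LPS background reached 4.91 times the genome background. The LPS counts of both sides therefore cannot be compared directly.

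Whether loss of the call recurs in libraries not used for the choice was described by leaving out an LPS and an LPS+Skatole library, in each of 9 combinations. Regions with peaks in both remaining LPS libraries and in neither remaining LPS+Skatole library numbered 1546 to 1808. On average 31.2% of them (29.3% to 35.0%) were called in the LPS library left out, and 34.2% (31.9% to 35.5%) in the LPS+Skatole library left out. The LPS share was higher in 1 of 9 combinations, and the mean difference was −2.92 percentage points (−5.53 to 1.55). Among all regions called in both remaining LPS libraries, the shares were 85.1% and 87.6%, a difference of −2.53 points. With all lists cut to 37551 peaks, the length of the shortest, the shares were 43.8% and 37.3% and the difference 6.56 points (4.24 to 8.93), against 0.869 points among all regions called in both remaining LPS libraries. The direction in the left-out libraries thus turned with the length of the lists. The combinations share libraries and were not tested.

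**Figure D5:**
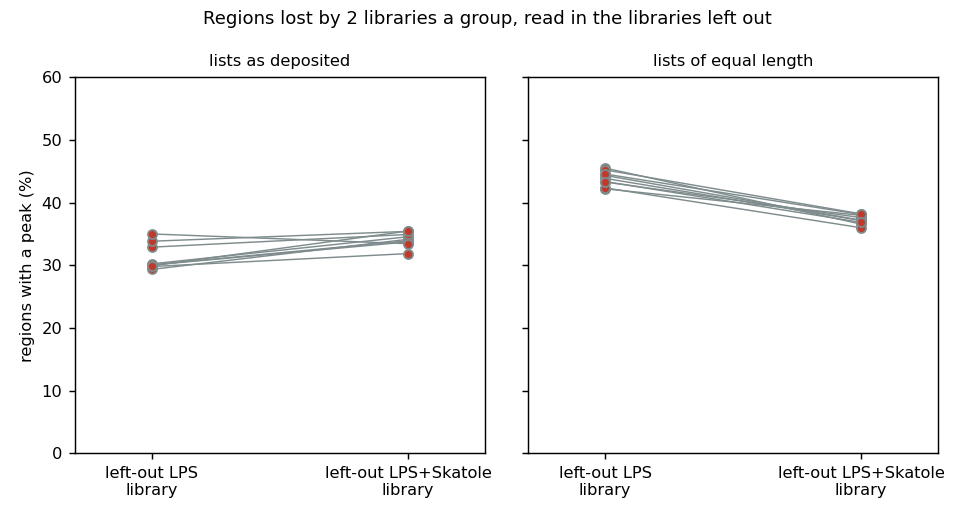
Share of regions with a peak (vertical axis, %) in the LPS and the LPS+Skatole library left out of the choice, for lists as deposited and for lists of equal length. Each line is 1 of 9 combinations. With the deposited lists the LPS+Skatole value is higher in all but 1 combination, and with equal lengths the LPS value is higher in all 9.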

How the data were processed

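The authors deposited a peak list for each of the 9 antibody libraries. The deposited rows give a fold (a ratio of summit pileup to local background), a score, and p and q as −log10 values. The lists end at a −log10 p of 5. The peak caller and the treatment of duplicates are not given in the sources used here. The submitters' processing notes name build mm10, fastp 0.20.1, HISAT2 2.1.0 and StringTie 2.0. Total reads are not in the lists, so depth was read from the genome background.

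Peaks on chromosomes 1 to 19, X and Y overlapping by at least 1 bp were merged (Python 3.11.15, numpy 2.4.6, pandas 2.3.3). Summit counts and backgrounds were recovered from the deposited fold and −log10 p, with fold = (count + 1)/(background + 1) and p the upper Poisson tail. At least 99.99% came out whole within 0.05 in every list. Recovery and merging were tested on simulated data that used the same formula and spaced regions with no missed peaks. This checks the calculation, and not the assumed formula or calls near the threshold. Backgrounds above 1.01 times the lowest were counted as raised. Genes and promoters came from RefSeq tables of GRCm38.p6, the assembly that mm10 names, with 21887 protein-coding genes. Of 608 genes in 15 lists, 604 matched.

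Shares of regions carry exact Clopper-Pearson intervals at 95% confidence (scipy 1.17.1). These cover counting error only. The exact sign-flip test runs over the 3 DMSO libraries and measures only the spread between these libraries, which may be technical.

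Members and gene lists were chosen with earlier results of these data known. Named regions were the 12 of highest mean LPS percentile, the 6 highest with 0 or with 3 DMSO peaks, at a gene end or at a list gene, genes with 2 or more lost regions, and 3 regions to each side of the threshold. A few named regions and a gene list are not reported here. Regions with a printed promoter, a small RNA gene or another list gene, and that at Il34, were added after their values were seen. Alternatives changed the list length, threshold, merging, gene-end window and libraries used.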

Additional observations from a re-analysis of the deposited data

How the results depend on the processing

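The number of lost regions depended most on how many libraries were asked for. It was 1032 to 1204 when an LPS library was left out and 536 to 554 when an LPS+Skatole library was left out, and 2859 with at least 2 of 3 LPS peaks. Leaving out libraries moved the share of LPS regions lost to between 2.32% and 4.39%, the share with a DMSO peak to between 23.7% and 51.8%, the gene-end share to between 21.2% and 28.3% and the median percentile to between 36.7 and 47.0. The difference in DMSO peaks between lost and kept regions was −64.6 to −62.8 percentage points without each DMSO replicate.

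With at least 2 of 3 LPS peaks, 8.14% of regions were lost, 23.0% of these had a DMSO peak and the median percentile was 36.1. Lists of equal length gave 1.81% lost, 59.8% with a DMSO peak, 29.6% at a gene end and a median percentile of 37.1, and reversed the difference between left-out libraries, from −2.92 to 6.56 points. Summit windows of 100 bp to each side gave 433 lost regions (2.49%), 51.7% with a DMSO peak, 31.2% at a gene end and a median percentile of 55.9. A merging gap of 500 bp gave a median percentile of 40.5. Gene-end windows of 1 kb and 10 kb gave 11.03% and 49.4%. Among alternatives chosen after seeing the data, members at the genome background numbered 152 (0.660%), and those with no LPS+Skatole peak within 500 bp were 0.830% of LPS regions. Regions merged without the DMSO lists gave 275 lost regions, and its other values stayed within the spread used to judge them or kept their direction. Of 100 alternative values, 54 stayed within the limits used to judge them, which for the difference in DMSO peaks ask only for the same direction, while 45 moved beyond them and 1 reversed. That difference kept its direction throughout but was as small as −29.5 points. The causes were not tested.

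No paired analysis was possible because a lost region has no summit count in any LPS+Skatole library to set against the LPS library of the same number, and its membership comes from no test. The sign-flip test compares region sets within each DMSO library and pairs no samples of different groups. At the genome background, fewer than 8 to 11 fragments were not detectable at this depth, and the limit was higher where the local background was raised, up to 258 fragments in the region nearest to Gm40035. Absence of a peak sets only that limit.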
